A study of Mus musculus with 8 samples.

Results

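Cadherins and protocadherins are adhesion proteins of the cell surface that bind one another across the gap between cells. They were followed here as 57 genes of the 19938 tested: 23 genes whose symbol is Cdh and a number, and 34 protocadherin genes (Pcdh), each represented by its own transcript cluster, the unit of signal on the array. The protocadherins comprised 12 genes that lie singly in the genome and the 22 genes of the clustered beta group. Genes entered by their symbol, and where a gene had more than 1 transcript cluster, which was so for 4 of them, the one with the highest mean over the arrays was used. RNA came from cultured hippocampal neurons of ICR mice, an outbred laboratory strain, taken from embryos at E17.5 and kept for 10 days in vitro. The cultures received 50 µM bicuculline, which blocks GABA-A receptors and so releases network firing from inhibition, for 0, 30, 180 or 300 min. Each of the 4 times had 2 biological replicates and each replicate had 1 Affymetrix Mouse Gene ST 1.0 array, 8 in all. The labels named no vehicle culture at the later times and did not say if replicates came from separate dissections. A p-value here thus covers only the spread seen among these arrays, and every change over time includes time in culture.

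Classical cadherins bind like to like through calcium-stabilised extracellular repeats and are tied to actin inside the cell by catenins. Type I cadherins such as N-cadherin and type II cadherins such as Cdh9 hold pre- and postsynaptic membranes together, and which of them a neuron makes helps to set its partners. Non-clustered delta protocadherins signal through other cytoplasmic partners, and Pcdh8 among them can pull N-cadherin off the membrane. The clustered protocadherins, of which each neuron uses a varied few, give neurites of one cell a means of self-recognition.

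Values are array signals on a log2 scale, so a change of 1 is a doubling, and SE stands for the moderated standard error that limma gives each change. Array medians lay between 4.84 and 4.88, and replicates correlated at r = 0.985 to 0.990 across all 35399 rows within each pair. The 9 measured pan-neuronal marker genes all lay above background, set at the 95th percentile of 1015 olfactory receptor genes (4.47), as did 8 of 8 excitatory and 10 of 11 interneuron markers. Glial markers were detected too, with 10 of 11 astrocyte, 7 of 9 oligodendrocyte lineage and 7 of 10 microglia markers above background. The early activity gene Npas4 had signals of 5.67 and 5.96 at 0 min, 9.67 and 9.72 at 30 min, 7.65 and 7.43 at 180 min, and 7.54 and 7.83 at 300 min, higher at every later time than at 0 min. In RNA from a whole culture, fewer cells of a type and less RNA per cell cannot be told apart.

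Of the 57 genes, 45 (78.9%) had a mean signal above background, against 67.9% of all genes. They were 3 of 5 type I cadherins, 11 of 13 type II, 3 of 5 other cadherins, all 4 delta-1, all 5 delta-2 and all 3 other protocadherins, and 16 of 22 beta genes. By position, 25 of the 57 lie on chromosome 18 (the beta genes with Cdh2, Pcdh1 and Pcdh12), 8 on chromosome 8, 5 each on chromosomes 14 and 15, and 2 on X. The 12 at or under background included Cdh5, the cadherin of endothelial junctions (mean 4.12), and Cdh1 and Cdh3, the E- and P-cadherins of epithelia (4.45 and 4.41). Cdh17 (3.62), known from liver and intestine, and Cdh19 (2.86) were also among them.

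Few members of the family changed, and those that did moved in opposite directions. Pcdh8 and Cdh9 were higher at 180 and 300 min than at 0 and 30 min, by 1.45-fold and 1.51-fold, and Pcdh19 and Pcdhb16 were lower, at 0.637 and 0.751 times the early level. A member was called where its limma p, adjusted by Benjamini-Hochberg over 19938 genes, was under 0.05. By this rule 0 members passed at 30 min against 0 min, where 0.0953% of all genes did. At an unadjusted p under 0.05 there was 1 member (1.75%), beside 5.11% of all genes. At 180 min against 0 min 1 member (1.75%) was called higher, where 0.211% of all genes were. Called lower were 0 members, where 0.12% of all genes were. At an unadjusted p under 0.05 there were 9 members (15.8%), beside 12.8% of all genes. At 300 min against 0 min the counts were likewise 1 higher (1.75%) and 0 lower, beside 0.226% and 0.0602% of all genes. Here 6 members (10.53%) had an unadjusted p under 0.05, beside 8.96% of all genes. The late times, 180 and 300 min, were also pooled against the early times, 0 and 30 min, which puts 4 arrays on each side. This called 2 members higher and 2 lower (3.51% each), beside 1.2% and 1.01% of all genes. In either direction it was 7.02% of members, beside 2.22% of all genes. In an F test over all times 1 member (1.75%) passed, beside 0.813% of all genes. The steps between later times gave no call: 0 members at 180 against 30 min, where 0.502% of all genes passed, and 0 members at 300 against 180 min, where 0% of all genes passed. The shares of members at an unadjusted p under 0.05 were near those of all genes in both steps, 10.53% (6 members) beside 10.46% and 5.26% (3 members) beside 5.72%. The comparisons against 0 min share the same 0 min arrays and are not independent of one another.

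The calls depended on which rows entered the fit. When all 35399 rows of the array were fitted, in place of 1 named row per gene, 0 members were called in any comparison, and 8 had an unadjusted p under 0.05 late over early. Calls over all 19938 genes fell too in this fit. Late over early they went from 240 higher and 202 lower to 24 and 6. Pcdh8 then had a limma adjusted p of 0.370 at 180 min, 0.362 at 300 min and 0.127 late over early, with the same log2 changes, and Pcdh19, Cdh9 and Pcdhb16 had 0.191, 0.215 and 0.165 late over early. In each fit below that left out 1 array, fewer of all genes were called late over early than in the main fit.

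**Figure D1:**
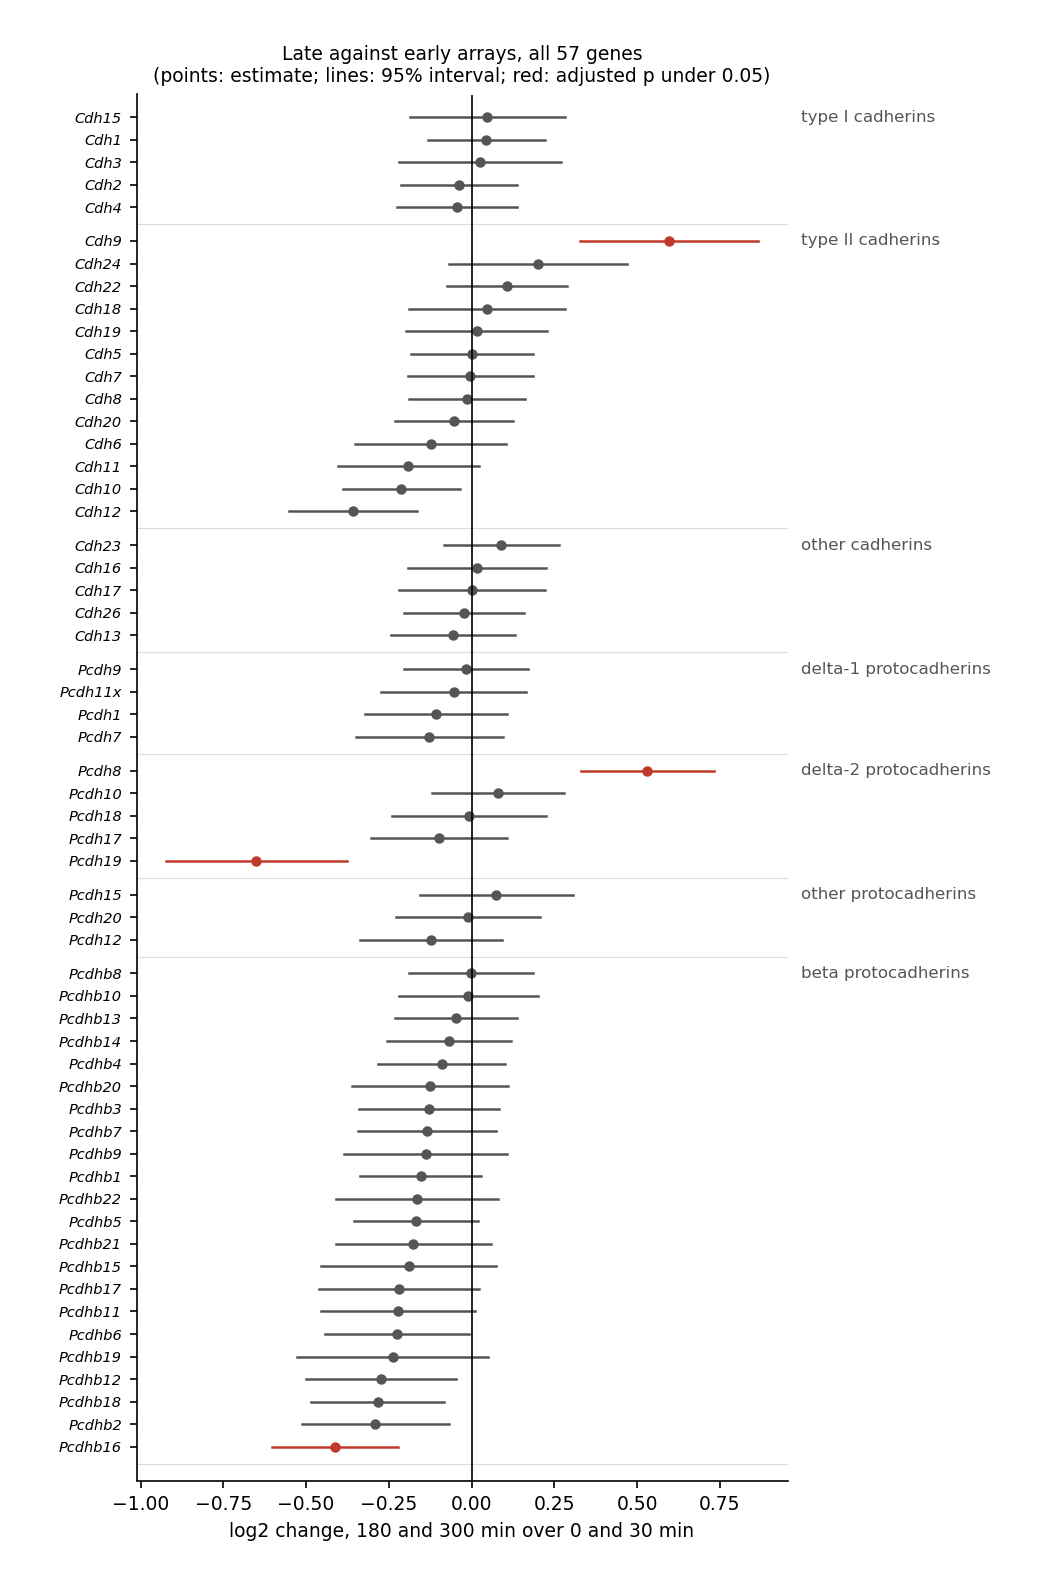
Log2 change of the 180 and 300 min arrays over the 0 and 30 min arrays (horizontal axis) for all 57 genes, in subgroups from top to bottom, with points for the estimate and lines for its 95% interval. Red marks the 4 genes with an adjusted p under 0.05, of which Cdh9 and Pcdh8 lie to the right of 0 and Pcdh19 and Pcdhb16 to the left, and all 22 beta protocadherin estimates lie below 0.

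Pcdh8, a delta-2 protocadherin known in rat hippocampus as arcadlin, is induced there by synaptic activity and draws N-cadherin into the cell through the kinase Taok2. Its signals were 7.67 and 7.47 at 0 min, 8.01 and 8.06 at 30 min, 8.30 and 8.29 at 180 min, and 8.52 and 8.22 at 300 min. Both arrays of each later time lay above both 0 min arrays, and the 180 and 300 min arrays also lay above the 30 min ones. The change was 0.47 ± 0.13 (SE) at 30 min, which did not pass (limma adjusted p = 0.685, unadjusted p = 0.00331). It was 0.73 ± 0.13 at 180 min (adjusted p = 0.0400) and 0.80 ± 0.13 at 300 min (adjusted p = 0.0193), or 1.65-fold and 1.74-fold, and Pcdh8 was the member that passed the F test (adjusted p = 0.0254). The difference between 180 and 30 min, 0.26 ± 0.13, did not pass (adjusted p = 0.532). At 180 min the call was lost with any 1 array of the 0, 30 or 180 min groups left out (adjusted p 0.0679 to 0.180), and at 300 min with 0 min replicate 1 or 2 or 300 min replicate 1 left out (0.0699 to 0.219), while the change stayed between 0.63 and 0.95. Pooled, late over early, it was 0.53 ± 0.09 (adjusted p = 0.0088), and of the 8 fits that left out 1 array this call was lost in that without 30 min replicate 1 (0.0532).

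The 300 bases around the start of Pcdh8, 250 before and 50 after, are shown because it was the member called in the most comparisons. They lie on mouse chromosome 14 in RefSeq assembly GRCm38.p6, at chr14:79771263-79771562 on the minus strand, and capitals mark in order a CCAAT box read on the other strand, an octamer and a TATA box.
Pcdh8: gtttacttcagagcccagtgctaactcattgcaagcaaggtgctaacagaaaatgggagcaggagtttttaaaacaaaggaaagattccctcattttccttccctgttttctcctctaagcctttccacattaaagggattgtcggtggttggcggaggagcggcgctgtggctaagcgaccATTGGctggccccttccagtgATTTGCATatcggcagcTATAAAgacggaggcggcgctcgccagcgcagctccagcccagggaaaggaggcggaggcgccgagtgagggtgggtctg
The letters searched on both strands were TATAAA for the TATA box, CCAAT for the CCAAT box, ATTTGCAT for the octamer, TGACGTCA for the cAMP response element, TGACG for its core, TGANTCA for the AP-1 site and GCGTGGGCG for the Egr site. The core motif lies inside the full cAMP response element. Of 32851 mouse promoter windows of this length, 13.6% held the TATA box letters, 37.4% the CCAAT box, 1.74% the octamer, 1.79% the full cAMP response element, 20.8% its core, 7.81% the AP-1 site and 0.612% the Egr site. Windows were at hand for 22 of the 57 members, 25 windows in all because some genes have several starts. Of these 25, 2 held the TATA box, 17 the CCAAT box, 1 the octamer, 4 the core, and 0 each the full element, the AP-1 site and the Egr site. In the Pcdh8 window the first base of the TATA box lay at -30, that of the octamer at -47 and that of the CCAAT box at -68, counted from the start of the gene. These are matches of letters and were not tested as binding sites.

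Pcdh19, the other delta-2 gene that was called, is X-linked, is known in humans for an epilepsy seen mostly in girls, and binds N-cadherin. Its signals were 8.02 and 7.33 at 0 min, 7.96 and 7.74 at 30 min, 7.11 and 7.26 at 180 min, and 7.08 and 6.99 at 300 min. All 4 late arrays lay below all 4 early ones, but the 0 min arrays stood far apart (SD 0.49) and the lower of them came close to the higher 180 min array. The changes from 0 min were 0.17 ± 0.18 at 30 min, -0.49 ± 0.18 at 180 min and -0.64 ± 0.18 at 300 min, and none passed (limma adjusted p = 0.983, 0.274 and 0.223). Late over early the change was -0.65 ± 0.13, with an adjusted p of 0.0153. Without 0 min replicate 1, 30 min replicate 1, 180 min replicate 1 or either 300 min replicate this call was lost (adjusted p 0.0530 to 0.101), with changes between -0.48 and -0.82 over all 8 such fits. Without 0 min replicate 2, Pcdh19 was called at 300 against 0 min (change -0.99, adjusted p = 0.0289). Its start lies on chromosome X, at chrX:133688944-133689243 on the minus strand of GRCm38.p6, and is shown to set beside that of Pcdh8: the capitals mark a CCAAT box on the other strand, with its first base at -65, and no TATAAA or octamer letters are in this window.
Pcdh19: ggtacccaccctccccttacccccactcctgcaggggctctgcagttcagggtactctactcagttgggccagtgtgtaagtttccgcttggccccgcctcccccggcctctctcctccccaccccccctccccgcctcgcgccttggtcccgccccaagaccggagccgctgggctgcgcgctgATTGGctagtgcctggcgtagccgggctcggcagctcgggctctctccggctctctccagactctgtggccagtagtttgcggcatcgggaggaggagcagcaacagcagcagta

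The remaining delta-2 protocadherins did not pass in any comparison. Pcdh10, known in mouse neurons for its part in activity-driven synapse elimination, had signals of 7.04 and 6.76 at 0 min, 6.67 and 6.71 at 30 min, 6.86 and 6.92 at 180 min, and 6.96 and 6.76 at 300 min. The lower 0 min array lay among the later ones, and the 95% interval of the late over early change ran from -0.12 to 0.28. Pcdh17, which recruits actin regulators at axon contacts, had a late over early estimate of -0.10 (interval -0.30 to 0.11), and Pcdh18 one of -0.01 (-0.24 to 0.22). The subgroup therefore held 1 higher, 1 lower and 3 uncalled genes.

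Cdh9 is a type II cadherin known in mouse hippocampus for specifying the synapses that dentate granule cells make on CA3 neurons. Its signals were 6.04 and 6.25 at 0 min, 5.98 and 6.02 at 30 min, 6.34 and 6.95 at 180 min, and 6.86 and 6.52 at 300 min. All 4 late arrays lay above all 4 early arrays, with the late replicates wider apart than the early ones (SD 0.43 at 180 min, 0.15 at 0 min). The changes from 0 min were -0.14 ± 0.18 at 30 min, 0.50 ± 0.18 at 180 min and 0.55 ± 0.18 at 300 min, and none passed (limma adjusted p = 0.985, 0.257 and 0.310). Late over early it was 0.60 ± 0.13 (adjusted p = 0.0235). The call was lost without 0 min replicate 1, either 30 min replicate, 180 min replicate 2 or 300 min replicate 1 (adjusted p 0.0664 to 0.112), with changes between 0.44 and 0.75 over all 8 such fits. Its start on chromosome 15, at chr15:16728665-16728964 on the plus strand of GRCm38.p6, is shown as that of the other gene that rose: the capitals mark a CCAAT box with its first base at -74, and the TATAAA and octamer letters of the Pcdh8 window are not in it.
Cdh9: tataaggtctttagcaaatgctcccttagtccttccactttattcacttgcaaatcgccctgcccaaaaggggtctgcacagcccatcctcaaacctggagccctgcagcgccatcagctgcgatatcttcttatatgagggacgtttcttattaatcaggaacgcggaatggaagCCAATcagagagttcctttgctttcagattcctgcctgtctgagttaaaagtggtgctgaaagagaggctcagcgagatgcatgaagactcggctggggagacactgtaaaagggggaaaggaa

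**Figure D2:**
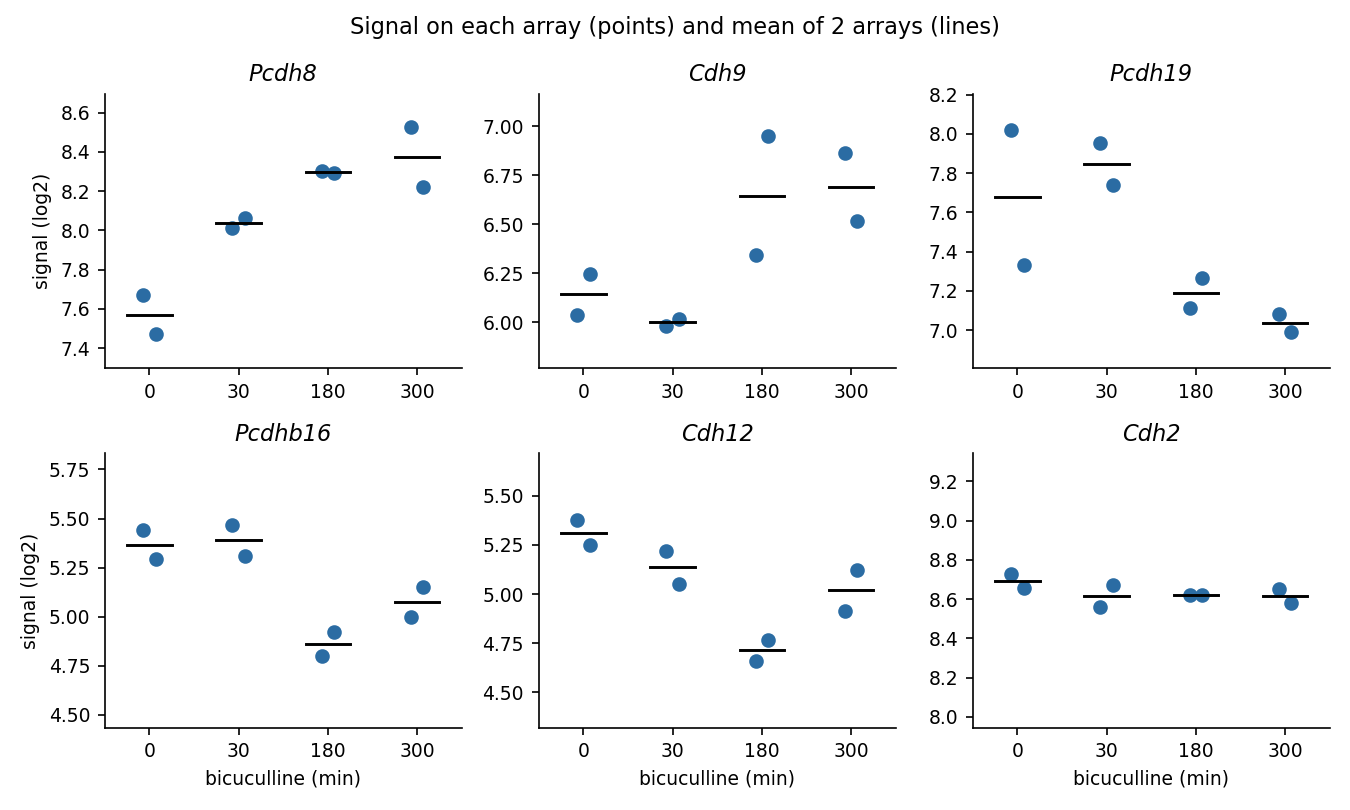
Log2 signal on each array (points) and mean of the 2 arrays of each time (lines) against minutes of bicuculline for 6 genes, with a separate vertical range in each panel. Pcdh8 and Cdh9 are higher and Pcdh19 and Pcdhb16 lower on all 4 late arrays than on all 4 early ones, Cdh12 is lowest at 180 min, and Cdh2 stays within 8.56 to 8.73.

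Cdh9 lies on chromosome 15 in a row of 5 type II cadherin genes, Cdh6, Cdh9, Cdh10, Cdh12 and Cdh18, and the other 4 were not called. Late over early the changes along that row were -0.12, 0.60, -0.21, -0.36 and 0.05. Cdh12, also called brain cadherin, had signals of 5.38 and 5.25 at 0 min, 5.22 and 5.05 at 30 min, 4.66 and 4.77 at 180 min, and 4.91 and 5.12 at 300 min. Both 180 min arrays lay below all the others, and the 300 min arrays overlapped those of 30 min. Its change was -0.18 ± 0.13 at 30 min, -0.60 ± 0.13 at 180 min and -0.29 ± 0.13 at 300 min, with limma adjusted p = 0.974, 0.0725 and 0.516, and it was not called. When genes under background were left out of the test it passed at 180 min (adjusted p = 0.0407) and late over early (-0.36, adjusted p = 0.0323). Cdh10 had signals of 7.12 and 7.14 at 0 min, 7.18 and 7.20 at 30 min, 6.82 and 6.94 at 180 min, and 7.07 and 6.97 at 300 min. All its late arrays lay below its early ones, by -0.21 ± 0.08 on average, without passing (adjusted p = 0.237).

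The other type II cadherins stayed uncalled. Cdh8, a synaptic cadherin, had a late over early estimate of -0.01 (95% interval -0.19 to 0.16), and Cdh11, known from mesenchyme and also made by neurons, one of -0.19 (-0.40 to 0.02). Cdh11 signals were 8.08 and 8.14 at 0 min, 8.05 and 7.99 at 30 min, 7.66 and 7.96 at 180 min, and 8.10 and 7.78 at 300 min, so early and late arrays overlapped. Estimates for Cdh24, Cdh22 and Cdh7 were 0.20, 0.11 and -0.0034, again without passing. Of the 13 type II genes 1 was thus called higher and 0 lower late over early, with a median change of -0.0034, beside -0.0030 for all genes.

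N-cadherin, Cdh2, the main classical cadherin of synapses and the partner that Pcdh8 and Pcdh19 bind, gave nearly level signals. They were 8.73 and 8.66 at 0 min, 8.56 and 8.67 at 30 min, 8.62 and 8.62 at 180 min, and 8.65 and 8.58 at 300 min, so early and late arrays overlapped. The estimate against 0 min was -0.07 at 30 min, -0.07 at 180 min and -0.08 at 300 min, each ± 0.12 (SE), and late over early it was -0.04 with a 95% interval of -0.21 to 0.14. That interval leaves out changes of the size seen for Pcdh8 in the same comparison. Of the other type I genes, R-cadherin Cdh4 had an estimate of -0.04 (-0.22 to 0.14), and M-cadherin Cdh15, known from muscle, one of 0.05 (-0.19 to 0.28). Of the 5 type I genes 0 were called. Cdh13, or T-cadherin, which is held in the membrane by a lipid anchor and has no cytoplasmic tail, had one of -0.06 (-0.24 to 0.13), and 0 of the 5 cadherins of this mixed group were called. Estimates for Cdh16, known from kidney, and Cdh26 were 0.02 and -0.02. Cdh23, which with Pcdh15 forms the tip links of hair cells, had a late over early estimate of 0.09, and that of Pcdh15 was 0.08, neither of them called.

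Delta-1 protocadherins were all above background and all uncalled. Late over early the estimates were -0.02 for Pcdh9, -0.05 for Pcdh11x, -0.11 for Pcdh1 and -0.13 for Pcdh7. The widest of these intervals, for Pcdh7, ran from -0.35 to 0.09. Signals for Pcdh7 were 6.82 and 6.73 at 0 min, 6.83 and 6.49 at 30 min, 6.82 and 6.50 at 180 min, and 6.58 and 6.45 at 300 min, with early and late arrays overlapping. Pcdh20 had an estimate of -0.01, and Pcdh12, known from endothelium, one of -0.12.

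The beta protocadherins are 22 single-exon genes in tandem on chromosome 18, each with its own promoter and, unlike the alpha and gamma genes, without a shared constant region. Their estimates leaned one way at the late times: 21 of 22 were below 0 at 180 min against 0 min, with Pcdhb13 the exception at 0.11, and 21 of 22 were below 0 at 300 min, with Pcdhb4 the exception at 0.0064. In those comparisons 43 and 42 of the 57 members (75.4% and 73.7%) were below 0, beside 50.1% and 50.6% of all genes. At 30 min 13 of 22 beta genes were below 0, beside 49.8% of all genes. The median change of the beta genes was -0.03 at 30 min, -0.18 at 180 min and -0.17 at 300 min. The all-gene medians were 0.0006, -0.00071 and -0.0025. Among the 13535 genes above background the medians were -0.019, -0.038 and -0.016, so these genes leaned down too, by less. Late over early all 22 beta genes were below 0, beside 51.0% of all genes. Their median was -0.17, with a range of -0.41 to -0.0023, and 1 of the 22 passed. Gene by gene these shifts were small: 4 of 22 (18.2%) had an unadjusted p under 0.05 at 180 min, beside 12.8% of all genes. At 300 min 2 of 22 (9.09%) had one, near the 8.96% of all genes. Late over early it was 5 of 22 (22.7%), beside 14.3% of all genes.

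The lean was not carried alike by all arrays. The median signal of the 22 beta genes was 4.93 and 4.74 at 0 min, 4.88 and 4.64 at 30 min, 4.59 and 4.56 at 180 min, and 4.69 and 4.66 at 300 min. The second 30 min array lay below both 300 min arrays, so early and late arrays overlapped. Without 0 min replicate 1, 16 of 22 estimates were below 0 at 180 min and 16 at 300 min. The beta genes are paralogs, and whether probes of one take up RNA of another was not tested, so it is uncertain how far the 22 genes are separate measurements. Of these genes 6 were at or under background.

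**Figure D3:**
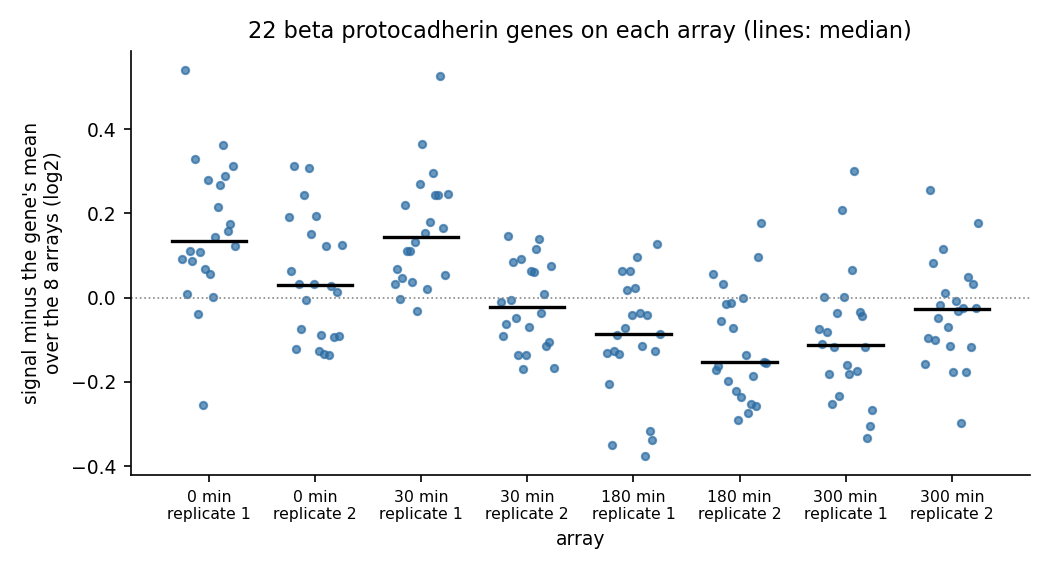
Log2 signal minus the gene's own mean over the 8 arrays (vertical axis) for the 22 beta protocadherin genes (points) on each array, with lines for the median. Medians are 0.13 and 0.03 at 0 min, 0.14 and -0.02 at 30 min, -0.09 and -0.15 at 180 min, and -0.11 and -0.03 at 300 min.

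Pcdhb16 was the beta gene that passed. Its signals were 5.44 and 5.29 at 0 min, 5.47 and 5.31 at 30 min, 4.80 and 4.92 at 180 min, and 4.998 and 5.15 at 300 min. All 4 late arrays lay below all 4 early arrays, and the 180 min pair lay lowest. The change was 0.02 ± 0.13 at 30 min, -0.51 ± 0.13 at 180 min and -0.29 ± 0.13 at 300 min, with limma adjusted p = 0.994, 0.117 and 0.502, and late over early it was -0.41 ± 0.09 (adjusted p = 0.0252). That call was lost without 0 min replicate 1, either 30 min replicate, 180 min replicate 1 or 300 min replicate 1 (adjusted p 0.0574 to 0.152), with changes between -0.37 and -0.45 over all 8 such fits.

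Pcdhb2 and Pcdhb18 had the next lowest late over early estimates in the cluster, -0.29 and -0.28 (limma adjusted p = 0.194 and 0.149). Pcdhb2 had signals of 5.57 and 5.09 at 0 min, 5.09 and 4.93 at 30 min, 4.82 and 4.85 at 180 min, and 4.92 and 4.93 at 300 min. Its late arrays all lay below its early arrays, the nearest pair being almost level at 4.93. Pcdhb3 had signals of 5.18 and 5.49 at 0 min, 5.17 and 5.11 at 30 min, 4.82 and 5.01 at 180 min, and 5.18 and 5.43 at 300 min. Both its 180 min arrays lay below all the others, and its late over early estimate of -0.13 did not pass. Pcdhb7 and Pcdhb8 had late over early estimates of -0.13 and -0.0023, and Pcdhb1, Pcdhb10 and Pcdhb22 ones of -0.15, -0.0097 and -0.17, all uncalled. Counting members whose 4 late arrays all lay beyond their 4 early arrays gave 2 higher (Pcdh8 and Cdh9), beside 3.47% of all genes, and 4 lower (Cdh10, Pcdh19, Pcdhb2 and Pcdhb16), beside 5.36% of all genes.

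**Figure D4:**
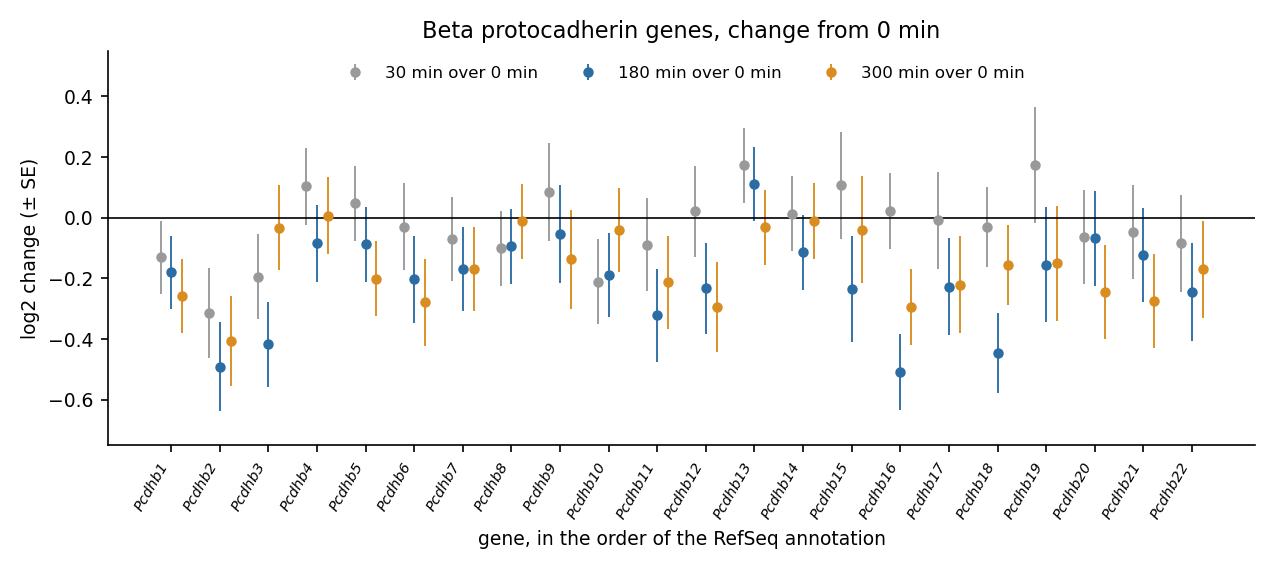
Log2 change from 0 min (vertical axis, ± SE) at 30, 180 and 300 min for each beta protocadherin gene, in the order of the RefSeq annotation along the cluster. At 180 min the lowest estimates belong to Pcdhb16 (-0.51), Pcdhb2 (-0.49), Pcdhb18 (-0.44) and Pcdhb3 (-0.42), which are not side by side except for Pcdhb2 and Pcdhb3.

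The alpha protocadherin genes share their constant exons, and the array annotation gave them 1 transcript cluster with 14 symbols, which is not among the 57 genes. Its signals were 6.87 and 6.80 at 0 min, 6.78 and 6.83 at 30 min, 6.70 and 6.53 at 180 min, and 6.76 and 6.75 at 300 min. The late arrays lay below the early ones by a small margin, and no test was made. No transcript cluster with a single gamma protocadherin symbol was in the annotation used, so the gamma genes were not analysed here.

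Proteins that work with the family were followed through lists of named genes. Of 16 measured genes of the catenin and scaffold list, 1 was called late over early: Jup, or plakoglobin, which binds cadherin tails as beta-catenin does. Its signals were 7.17 and 7.21 at 0 min, 7.29 and 7.22 at 30 min, 6.84 and 6.75 at 180 min, and 6.73 and 6.80 at 300 min. All late arrays lay below all early arrays, by -0.44 ± 0.08 (limma adjusted p = 0.0116). Beta-catenin itself, Ctnnb1, had an estimate of -0.21 ± 0.09 without passing (adjusted p = 0.267), and the scaffold Lin7c one of -0.23 ± 0.09 (adjusted p = 0.222). The median of the list was -0.09, beside -0.0030 for all genes.

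Among 24 measured genes of the wider cadherin superfamily 2 were called lower and 0 higher late over early, beside 1.01% and 1.2% of all genes. Those called were Fat4 and Dchs1, giant cadherins that bind each other as receptor and ligand. Fat4 had signals of 7.43 and 6.56 at 0 min, 7.24 and 7.18 at 30 min, 6.51 and 6.40 at 180 min, and 6.51 and 6.52 at 300 min. The second 0 min array of Fat4, like that of Pcdh19, lay close to the late arrays, and the change was -0.61 ± 0.14 (limma adjusted p = 0.0373). Dchs1 had signals of 7.04 and 6.63 at 0 min, 6.92 and 6.90 at 30 min, 6.44 and 6.36 at 180 min, and 6.60 and 6.21 at 300 min. Its late arrays all lay below its early arrays, the second 0 min array again being the nearest, and the change was -0.47 ± 0.11 (limma adjusted p = 0.0403). Celsr2, a cadherin of planar polarity, had an estimate of -0.36 and did not pass (adjusted p = 0.101).

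Of 21 measured genes that regulate the clustered protocadherins, 1 was called lower late over early, beside 1.01% of all genes: Tet1, which oxidises methylated cytosine. Its signals were 7.19 and 6.88 at 0 min, 6.79 and 6.76 at 30 min, 6.05 and 6.62 at 180 min, and 6.25 and 6.40 at 300 min. All late arrays lay below all early arrays, and the change was -0.58 ± 0.12 (limma adjusted p = 0.0217). Ctcf, which folds the cluster's promoters onto their enhancers, had an estimate of -0.0067 ± 0.10 (adjusted p = 0.987). The median of this list was -0.11, and 11 of its genes had an unadjusted p under 0.05, beside 14.3% of all genes. Of 13 measured genes of protocadherin signalling 0 were called late over early, beside 2.22% of all genes in either direction. Taok2 was among the uncalled (-0.23 ± 0.09, limma adjusted p = 0.255), 2 of the 13 had an unadjusted p under 0.05, and the list median was -0.04. Of 14 measured cadherin proteases 0 were called, with Adam10, which cuts N-cadherin, at -0.27 ± 0.09 (adjusted p = 0.137), 5 at an unadjusted p under 0.05 and a list median of -0.03.

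Markers of other cell types gave the following values beside these changes. Summed on a linear scale, the 11 astrocyte markers were 1199 to 1464 at 0 min, 1215 to 1320 at 30 min, 1114 to 1205 at 180 min and 1130 to 1202 at 300 min, and 0 of them were called (2 had an unadjusted p under 0.05). The 8 fibroblast and meningeal markers summed to 660.5 to 689.8 at 0 min, 689.1 to 709.5 at 30 min, 699.8 to 736.5 at 180 min and 655.3 to 705.1 at 300 min, with 0 called and 0 at an unadjusted p under 0.05. The 7 progenitor markers summed to 321.8 to 346.2 at 0 min, 321.1 to 342.7 at 30 min, 359.8 to 403.8 at 180 min and 328.0 to 346.3 at 300 min, so both 180 min arrays lay above all the others. Of these markers 0 were called at 180 against 0 min, 3 of 7 had an unadjusted p under 0.05 and their median estimate was 0.20. The 11 interneuron markers summed to 3531 to 3610 at 0 min, 3548 to 3641 at 30 min, 3811 to 3913 at 180 min and 3410 to 3861 at 300 min, with both 180 min arrays above all early ones, and 0 were called or had an unadjusted p under 0.05 at 180 against 0 min. Pan-neuronal markers summed to 8530 to 9214 at 0 min, 9128 to 9177 at 30 min, 8034 to 8549 at 180 min and 8722 to 9131 at 300 min. At 300 min both microglia sums (326.0 and 328.9) lay below those of all other times (338.0 or more). So did the oligodendrocyte lineage sums (309.5 and 310.9, beside 320.2 or more) and the endothelial and mural sums (474.7 and 517.0, beside 523.0 or more). Of these markers 0 were called at 300 against 0 min. Ependymal and choroid sums at 300 min (343.9 and 366.2) overlapped other times. Excitatory sums were lowest at 180 min (2326 and 2418, beside 2469 or more). The astrocyte sum was at most 1205 on late arrays and at least 1199 on early ones. Of the 11 astrocyte estimates 10 were below 0 late over early, beside 51.0% of all genes. At 180 against 0 min 6 of the 11 were below 0, and at 300 against 0 min 8. The part of these marker sums in the changes of the family was not tested. Among all neuronal markers Grin2b was called lower (-0.73, limma adjusted p = 0.0116) and Slc17a6 higher (0.38, adjusted p = 0.0406) late over early. The 0 min arrays of Grin2b stood apart at 8.61 and 7.91, the second of them close to the higher 180 min array (7.86).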

How the data were processed

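The authors deposited a table with 1 signal for each transcript cluster on each of the 8 Affymetrix Mouse Gene ST 1.0 arrays, which were hybridised with biotin-labelled RNA, per the labels' protocols. The deposited values are on a log scale, whose base was not stated and was taken as log2 from the values, which ran from 1.22 to 14.96. The genome build, the software and the way in which signals were corrected and normalized are not given in the sources used here, and these set the size of every change, above all for dim genes. No further normalization was applied.

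The value table held 35399 rows. In the platform annotation 21789 rows had 1 symbol, 1621 had several and 11989 had none, and 21698 rows matched RefSeq GRCm38.p6, with 0 symbols changed. The row with the highest mean stood for each of 19938 genes, and no dim genes were removed. Promoter windows came from RefSeq GRCm38.p6.

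All 8 arrays entered 1 model with a mean per time, fitted with limma 3.58.1 in R 4.3.3 (lmFit and eBayes, 4 residual and 10.1 prior degrees of freedom, prior SD 0.133). All tests are two-sided, with Benjamini-Hochberg adjustment over all 19938 genes and a threshold of 0.05. The fit was checked on simulated data. Precision is limited by the number of arrays.

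The members, subgroups, partner lists and comparisons were chosen with earlier results of these data known. Named members were those called, 3 per subgroup by mean signal and by smallest p in the F test and in each comparison with 0 min, and Pcdh8 and Cdh2. Beyond this rule Cdh5, Cdh6, Cdh18, Cdh22, Cdh24, Pcdhb3 and Pcdhb4 are named after their values were seen. From the partner lists, called genes and some of those with the smallest p were named. Ctnnb1, Ctcf and Npas4, and the array values of a few uncalled members, were added for their roles. Alternatives were other normalizations, filters, row choices and variance settings, a replicate block, a trend with gene length, and leaving out each array in turn.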

Additional observations from a re-analysis of the deposited data

How the results depend on the processing

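Where a count of called members did not stay within 1.5 times its value, it was as follows. With genes under background left out, 2 members were called at 180 against 0 min (Cdh12 and Pcdh8). Of all 13535 genes in that fit 53 were called higher and 48 lower, against 42 and 24 of 19938 in the main fit. With every row tested, 0 were called at 180 against 0 min, 0 at 300 against 0 min, 0 late over early and 0 in the F test, and the cause was not tested. Over all 19938 genes that setting called 1 higher and 0 lower at 180 against 0 min, and 5 and 0 at 300 against 0 min. Late over early it called 24 higher and 6 lower. With a variance trend and robust fitting the F test called 2 (Pcdh8 and Pcdh19). Leaving out 1 array at a time gave 0 to 1 calls at 180 against 0 min, 0 to 1 at 300 against 0 min, 0 to 1 at 180 against 30 min, 0 to 4 late over early and 0 to 2 in the F test.

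Deviations of same-numbered replicates from their group means correlated between -0.094 and 0.092, so the numbers were not taken to pair the arrays. With the replicate number as a block, Pcdh8 kept its calls (limma adjusted p = 0.0397 at 180 min, 0.0185 at 300 min and 0.00884 late over early), and the counts of members called in each comparison did not change. Medians of subgroups moved as follows. For type II cadherins at 180 against 0 min the median was 0.045 after a trend with gene length was subtracted, against -0.05 before. For the mixed group of other cadherins it was 0.13 without dim genes and 0.15 after the length trend, against 0.06. Leaving out 1 array gave -0.15 to 0.080 for beta protocadherins at 30 min, -0.26 to 0.10 and -0.23 to 0.10 for delta-2 protocadherins at 180 and 300 min, -0.0026 to 0.11 for other cadherins at 180 min and -0.038 to 0.028 late over early, and -0.088 to 0.028 for type II cadherins at 300 min. With 1 array left at a time, that array is assumed to vary like the other times. The 2 arrays per time, and signals at or under background for 12 of the 57 genes and little above it for others, limit what could be detected.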

Other observations

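In addition to its own row, Cdh11 is named on 3 rows that also carry the symbols 6820431F20Rik and 2610005L07Rik, so their signal cannot be given to one gene. They were lower at 30 min than at 0 min, with changes of -0.28, -0.49 and -0.34, and their changes at 180 min were 0.0093, -0.012 and -0.052. The row of Cdh11 alone had an estimate of -0.09 at 30 min. No test was made on the shared rows.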
